A study of Mus musculus with 8 samples.

Results

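The oxidative phosphorylation genes encode the mitochondrial machine that turns the oxidation of NADH and succinate into ATP. They were chosen by symbol from the deposited array values: every gene starting with Nduf, Uqcr or Atp5, the genes Sdha, Sdhb, Sdhc, Sdhd, Cyc1 and Cycs, and the genes Cox4 to Cox8 with a suffix, without pseudogenes. This rule gave 93 genes of the 29915 that had a probe set carrying a single gene symbol, and each gene was read on its brightest probe set. By complex, 43 genes belonged to complex I, 4 to complex II, 9 to complex III, 20 to complex IV and 16 to complex V, and 1 was Cycs, cytochrome c. Ndufa4 was counted with complex IV, where its protein resides despite its name.

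The arrays came from long-term haematopoietic stem cells of mouse bone marrow, sorted as Lin- cKit+ Sca+ Flk2- CD48- CD150+ cells. There were 4 groups of 2 arrays each: WT sham-irradiated, WT after 2 Gy of total body irradiation, CD169DTR/+ sham-irradiated and CD169DTR/+ after 2 Gy. CD169DTR/+ mice carry 1 copy of the diphtheria toxin receptor under the gene of CD169, a surface lectin of a subset of tissue macrophages, so that the toxin depletes those macrophages. All 4 groups received diphtheria toxin, WT mice included; sham or 2 Gy irradiation followed 72 h later, and the stem cells were isolated 5 days after it. The replicates came from 2 separate experiments, according to the submitters. How many mice entered a sample, and their age and sex, are not given in the sources used here, so the p-values measure only the spread between these arrays.

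The respiratory chain passes electrons from NADH through complex I, or from succinate through complex II, to complex III, then by cytochrome c to complex IV and oxygen. Complexes I, III and IV pump protons across the inner mitochondrial membrane, and complex V, the ATP synthase, uses the gradient to make ATP. Long-term stem cells at rest are known for relying little on this route, and its use rises as they leave quiescence and differentiate.

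Values were deposited as RMA values whose log base is not given in the sources used here. They were read as log2 from their range, and on that reading a difference of 1 is a doubling. A level is that of a probe set, and levels of different genes were not set against each other. Kit, the receptor the cells were sorted on, lay at 14.93 and 14.89 in WT non-irradiated, 14.36 and 14.33 in WT 2 Gy, 14.77 and 14.66 in CD169DTR/+ non-irradiated, and 14.25 and 14.25 in CD169DTR/+ 2 Gy. Every irradiated array was thus below every control, and the part of Kit in the results was not tested. Cd48, whose protein the gate excludes, lay at 11.24 and 10.98 in WT non-irradiated, 12.95 and 12.14 in WT 2 Gy, 11.05 and 12.54 in CD169DTR/+ non-irradiated, and 13.47 and 13.0 in CD169DTR/+ 2 Gy. Its transcript was thus above the 40th percentile of all probe sets (4.40) on every array, and in each genotype both irradiated arrays were above both controls; its part in the results was not tested. Siglec1, the gene of CD169, lay between 3.86 and 4.12, below that percentile on every array. Cdkn1a, the cell cycle inhibitor that p53 induces after irradiation, lay between 7.86 and 9.79 without irradiation and between 13.06 and 13.41 after it, in the direction of the labels. Of the 93 members, 89 had a mean above that percentile, and Cox6a2, Cox7b2, Cox8b and Ndufa4l2, all isoforms of complex IV, did not. RNA comes from the whole sorted sample, so fewer cells of a type and less RNA per cell cannot be told apart.

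No oxidative phosphorylation gene passed an adjusted p of 0.05 in any of 6 comparisons (limma across all 30294 single-symbol probe sets, the background for counts below, with Benjamini-Hochberg adjustment). Over all probe sets the same threshold was passed by 0.00990% for irradiation in WT, by 0.00990% for irradiation averaged over both genotypes, and by 0% in the other 4 comparisons. The lowest adjusted p of a member was 0.41 for irradiation in WT, 0.62 for irradiation in CD169DTR/+, 0.36 for the average of both, 0.999 between genotypes without irradiation, 0.64 between genotypes after 2 Gy and 0.91 for the interaction. With an unadjusted p under 0.05, 4 members were higher and 1 lower after irradiation in WT, against 7.81% of all probe sets in either direction. The corresponding counts were 2 and 0 in CD169DTR/+ (background 6.77%), 10 and 0 for the average (9.23%), 3 and 0 between genotypes without irradiation (4.38%), 7 and 2 between genotypes after 2 Gy (7.57%) and 2 and 1 for the interaction (5.17%). What follows therefore describes levels and differences, none of which passed the test across genes.

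The differences were small and leaned one way. After irradiation, 71 of 93 members had a higher mean in WT, against 64.2% of all probe sets, and 76 in CD169DTR/+, against 56.6%. The median member difference was 0.105 in WT and 0.115 in CD169DTR/+, beside 0.03 and 0.015 over the 17953 genes above the 40th percentile. Averaged over both genotypes, 75 members were higher (background 63.7%). In CD169DTR/+ compared with WT, 80 members were higher without irradiation, against 57.0% of all probe sets, with a median of 0.11. After 2 Gy it was 83 members, against 45.7% of all probe sets, with a median of 0.135 beside 0.00 over the genes above the 40th percentile. The interaction, which is the irradiation difference in CD169DTR/+ minus that in WT, was above 0 for 50 members (41.8% of all probe sets) and had a median of 0.025.

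In WT the lean was lost when the array medians were set equal, but not under cyclic loess normalisation. The arrays' own medians ranged from 4.76 to 4.93, and setting them equal moved the median of all probe sets for irradiation in WT from 0.075 to -0.045, that of the members from 0.105 to -0.015, and the number of higher members from 71 to 44. Relative to the median of all probe sets, the members stood 0.03 higher. The gap was wider to the genes above the 40th percentile, whose median was 0.03 before centring beside 0.105 for the members. Centring cannot change either gap, because it shifts all probe sets of an array alike. Centring left the members' median above 0 in the other comparisons, at 0.09 for irradiation in CD169DTR/+, 0.08 between genotypes without irradiation and 0.20 between genotypes after 2 Gy, where 88 members were then higher. For irradiation averaged over both genotypes centring lowered it from 0.105 to 0.0325, with 52 members higher in place of 75. Under cyclic loess 68 members were higher for irradiation in WT, with a median of 0.095, against 48.8% and -0.005 over all probe sets. For the average over both genotypes it was 74 members and 0.098, against 49.3% and -0.002.

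Counting genes whose 2 arrays of one group lay wholly above both arrays of the other gives a view that does not rest on a fitted spread. Between genotypes after 2 Gy, 43 members lay higher in CD169DTR/+ without overlap, against 16.0% of all probe sets, and 2 lay lower, against 18.9%. Without irradiation 31 members lay higher (background 19.1%) and 4 lower (11.9%) in CD169DTR/+. After irradiation in WT, 29 lay higher (31.4%) and 10 lower (13.2%), and after irradiation in CD169DTR/+ 31 lay higher (17.8%) and 2 lower (13.4%). In both genotypes at once, 17 members lay higher after irradiation (6.36%) and 1 lower (3.05%). With the arrays centred on their medians, 46 members lay higher between genotypes after 2 Gy (23.7% of all probe sets) and 2 lower (11.7%), and 19 higher (15.4%) and 4 lower (16.5%) without irradiation. Centred, 5 lay higher (13.2%) and 22 lower (26.2%) after irradiation in WT, and 20 higher (15.9%) and 2 lower (15.7%) in CD169DTR/+. In both genotypes at once 3 then lay higher (2.67%) and 1 lower (5.52%). For irradiation in WT the lean of the counts thus turned under median centring, as did that of all probe sets. The members' share of higher genes there was near the background before centring (31.2% beside 31.4%), and their share of lower genes was near it after. In both genotypes at once the share of higher members was then near the background. For the genotypes after 2 Gy the members' share of higher genes was above the background on both scales. The last comparison shares its WT arrays with the first, and its CD169DTR/+ arrays with the second, so these counts are not separate evidence.

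**Figure D1:**
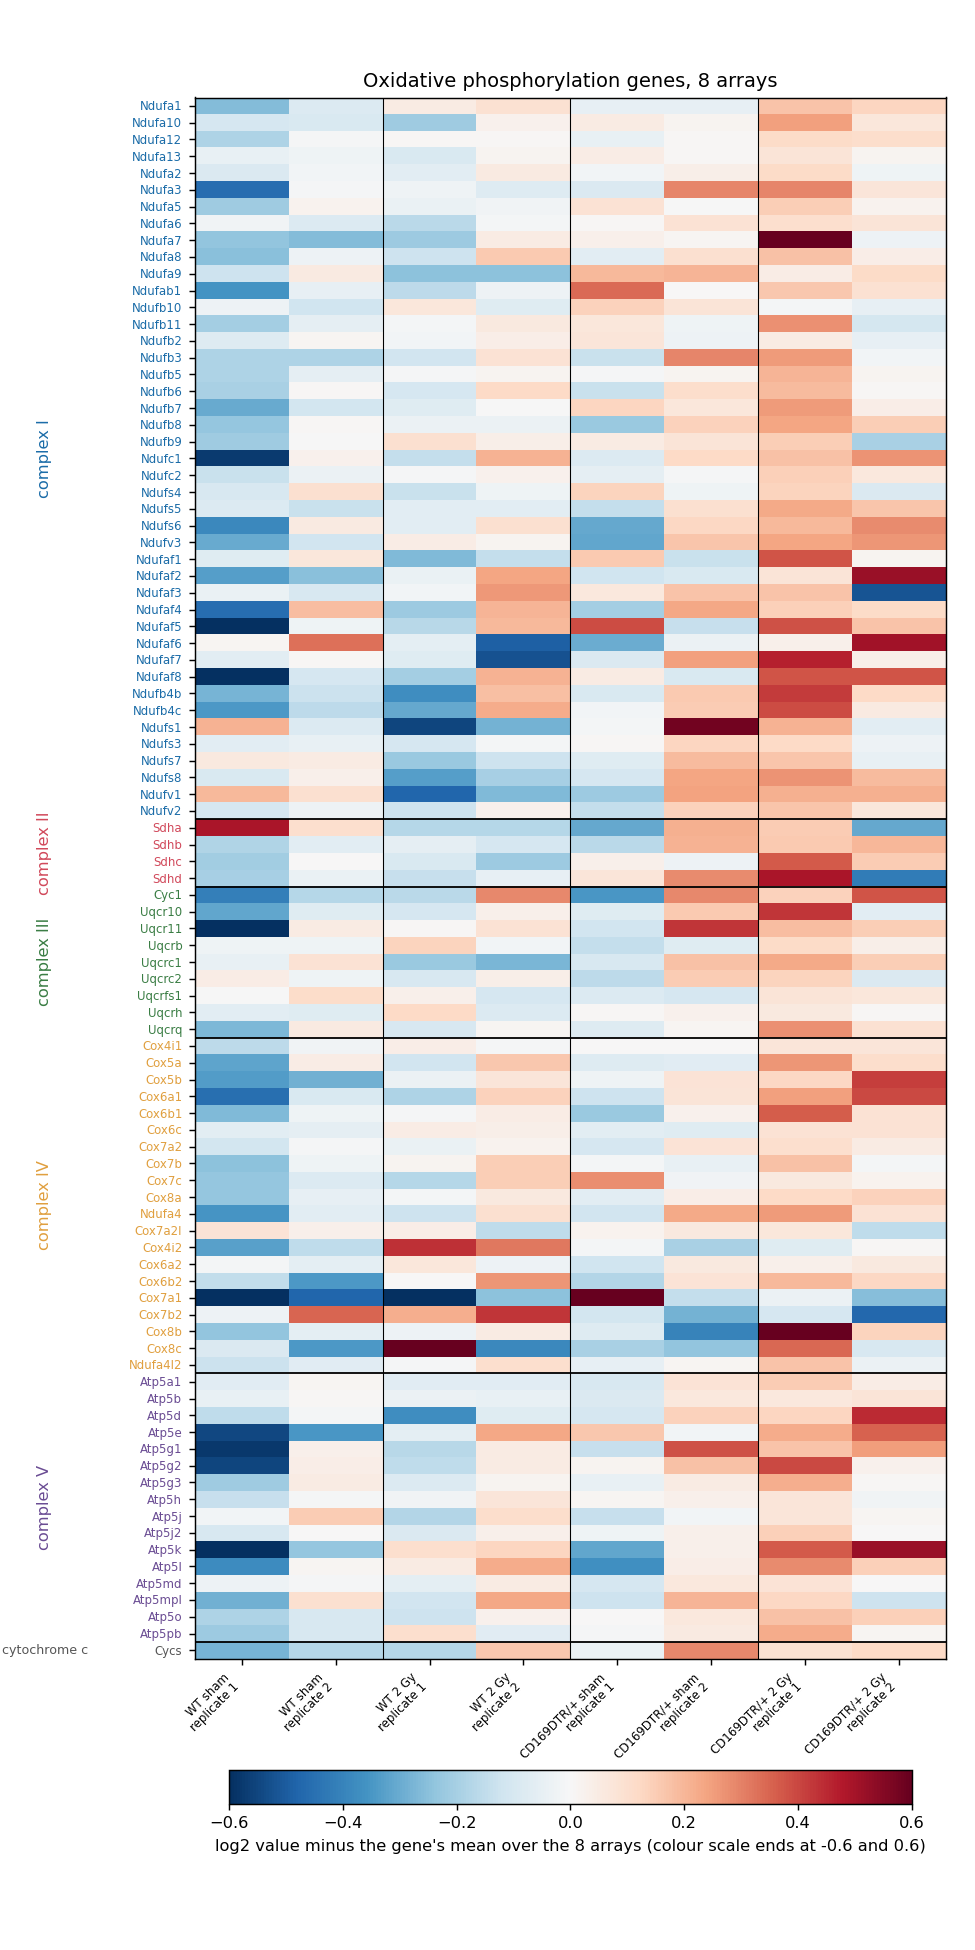
Heat map of the 93 genes (rows, grouped by complex and role) on the 8 arrays (columns); colour is the log2 value minus the gene's mean over the 8 arrays. The column of WT sham replicate 1 is mostly blue, being the lowest of the 8 for 53 genes, and that of CD169DTR/+ 2 Gy replicate 1 is mostly red, being the highest for 49.

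Single arrays carried much of this pattern. WT non-irradiated replicate 1 was the lowest of the 8 arrays for 53 of the 93 members, beside 14.8% of genes above the 40th percentile. CD169DTR/+ 2 Gy replicate 1 was the highest for 49, beside 13.9%. Replicates of one group differed by as much as the groups did: the median member was 0.15 higher in replicate 2 than in replicate 1 of WT non-irradiated, 0.11 higher in WT 2 Gy, 0.11 higher in CD169DTR/+ non-irradiated and 0.10 lower in CD169DTR/+ 2 Gy. All 16 complex V genes were higher in the second array of WT non-irradiated than in the first.

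Leaving out arrays moved the medians accordingly. Without WT non-irradiated replicate 1 the member median for irradiation in WT was 0.005, with 48 members higher, and the median between genotypes without irradiation was 0.04, with 62 higher. Without CD169DTR/+ 2 Gy replicate 1 the median for irradiation in CD169DTR/+ was 0.035, with 56 higher, and that between genotypes after 2 Gy was 0.08, with 68 higher. Over all 8 omissions the median between genotypes after 2 Gy ranged from 0.08 to 0.22. Leaving out WT 2 Gy replicate 1 and CD169DTR/+ 2 Gy replicate 2, the arrays farthest out in a principal component analysis of all probe sets, gave 0.14, with 79 members higher.

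**Figure D2:**
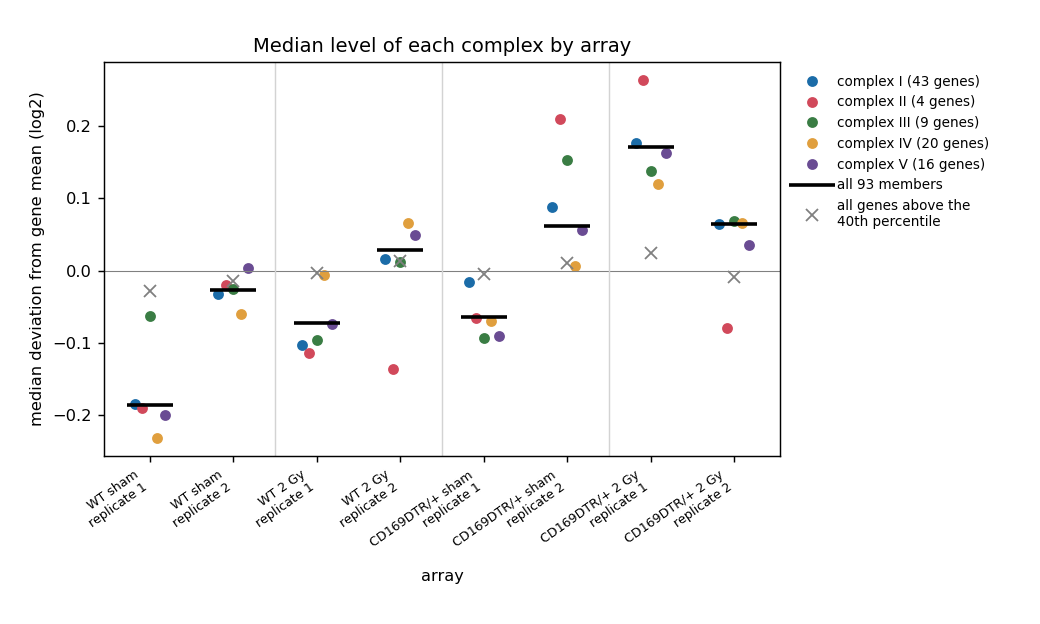
Median deviation from the gene mean (log2, vertical axis) on each array (horizontal axis) for each complex (coloured points), all 93 members (black bars) and all genes above the 40th percentile (grey crosses). The member medians run from -0.19 on WT sham replicate 1 to 0.17 on CD169DTR/+ 2 Gy replicate 1, and the crosses stay between -0.03 and 0.03.

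Complex I is the largest of the chain, an L-shaped enzyme whose core subunits bind NADH, flavin and iron-sulphur clusters. Its core and its accessory subunits gave different pictures after irradiation in WT. The 6 nuclear core subunits measured were Ndufv1 and Ndufv2, of the NADH-oxidising tip, and Ndufs1, Ndufs3, Ndufs7 and Ndufs8, which line the path of the electrons. Their median difference after irradiation in WT was -0.23, with 5 of 6 lower and 4 without overlap (13.2% of all probe sets). The 27 accessory subunits, which surround and stabilise the core, had a median of 0.10, with 23 higher (64.2% of all probe sets). Of these 11 were higher without overlap, beside 31.4% of all probe sets. With centred arrays all 6 core subunits were lower, 5 without overlap, with a median of -0.35, and the accessory subunits had a median of -0.02, with 12 of 27 higher, 0 of them without overlap, and 5 lower without overlap. In CD169DTR/+ the core median after irradiation was 0.06, with 4 of 6 higher and none without overlap.

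Between genotypes after 2 Gy all 6 core subunits were higher in CD169DTR/+, 5 of them without overlap, with a median of 0.36. All 6 stayed higher when any 1 array was left out, when arrays were centred and when they were normalised by cyclic loess, with medians from 0.24 to 0.44. For the 5 without overlap, leaving out 1 array could not have changed the direction, so only Ndufs3 was open to that check. The core median of the interaction was 0.25, and 5 of 6 were above 0. It was 0.04, with 3 of 6 above 0, without CD169DTR/+ non-irradiated replicate 1.

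Ndufv1 encodes the flavin-bearing subunit that accepts electrons from NADH. Its level was 12.32 and 12.22 in WT non-irradiated, 11.65 and 11.86 in WT 2 Gy, 11.91 and 12.37 in CD169DTR/+ non-irradiated, and 12.34 and 12.34 in CD169DTR/+ 2 Gy. Both irradiated WT arrays were thus below the other 6. The difference after irradiation in WT was -0.515 ± 0.18 (SE, n = 2 against 2; limma, adjusted p = 0.57), and that between genotypes after 2 Gy was 0.585 ± 0.18 (n = 2 against 2), 1.5-fold with a 95% interval from 1.12 to 2.01 and an adjusted p of 0.64. The interaction was 0.715 ± 0.25 (SE; limma, adjusted p = 0.92). Over the alternatives its adjusted p ranged from 0.55 to 0.9995.

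Ndufs8, an iron-sulphur subunit near the ubiquinone site that was named after its values were seen, also had its lowest values in irradiated WT. It lay at 12.59 and 12.71 in WT non-irradiated, 12.35 and 12.48 in WT 2 Gy, 12.58 and 12.92 in CD169DTR/+ non-irradiated, and 12.95 and 12.87 in CD169DTR/+ 2 Gy. Both irradiated WT arrays were the lowest of the 8. The difference between genotypes after 2 Gy was 0.495 ± 0.15 (SE, n = 2 against 2; limma, adjusted p = 0.64). Ndufs1, the largest core subunit, lay at 8.38 and 8.09, 7.62 and 7.89, 8.16 and 8.75, and 8.38 and 8.11 in the same order of groups, with a difference of 0.49 ± 0.23 (n = 2 against 2) between genotypes after 2 Gy. Ndufv1 and Ndufs8 both lie on chromosome 19, with 11 annotated genes between them in RefSeq's order, 8 of which are protein-coding.

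The accessory subunits differed less. Without irradiation all 27 had a higher mean in CD169DTR/+ than in WT (57.0% of all probe sets), with differences from 0.055 to 0.375 and a median of 0.13. Of these 13 were without overlap (19.1%). With centred arrays all 27 were still higher (49.2%), 7 of them without overlap (15.4%). Their median deviation from the gene means was -0.19 and -0.03 on the 2 WT non-irradiated arrays, beside -0.005 and 0.07 in CD169DTR/+, so WT replicate 1 weighs in these differences. After 2 Gy 24 of 27 were higher (45.7%), with a median of 0.115. Ndufa1, a small membrane subunit encoded on the X chromosome, lay at 15.97 and 16.15 in WT non-irradiated, 16.28 and 16.32 in WT 2 Gy, 16.18 and 16.18 in CD169DTR/+ non-irradiated, and 16.40 and 16.36 in CD169DTR/+ 2 Gy. Irradiated arrays were above their own controls in both genotypes, by 0.22 ± 0.08 on average (SE, 4 irradiated against 4 control arrays; limma, adjusted p = 0.51). Ndufa9, which binds a nucleotide cofactor at the arm junction, was the only accessory subunit with an unadjusted p under 0.05 between genotypes after 2 Gy, at 0.325 ± 0.12; it was singled out after its values were seen. Ndufb4b and Ndufb4c, near-identical copies of Ndufb4, had differences of 0.365 and 0.265 there, and their probe sets may share signal.

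The 8 Ndufaf genes encode factors that assemble complex I and are not part of it. Ndufaf2, a chaperone of the NADH-oxidising part, lay at 11.08 and 11.16 in WT non-irradiated, 11.37 and 11.65 in WT 2 Gy, 11.29 and 11.32 in CD169DTR/+ non-irradiated, and 11.49 and 11.93 in CD169DTR/+ 2 Gy. It was higher after irradiation in both genotypes without overlap, by 0.40 ± 0.13 on average (SE, 4 against 4 arrays; limma, adjusted p = 0.46). Ndufaf6 behaved otherwise: it lay at 9.11 and 9.43, 9.04 and 8.61, 8.80 and 9.06, and 9.13 and 9.60 in the same order of groups. It was thus 0.445 lower after irradiation in WT and 0.435 higher in CD169DTR/+, each without overlap, and the interaction was 0.88 ± 0.33 (SE; limma, adjusted p = 0.93). As a group the 8 factors had a median of 0.32 between genotypes after 2 Gy, with 7 higher and 4 without overlap.

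Complex II, succinate dehydrogenase, joins the citric acid cycle to the chain and has no mitochondrially encoded subunit. All 4 genes were higher in CD169DTR/+ than in WT after 2 Gy, with differences from 0.09 to 0.415, 2 of them without overlap. Sdhc, a membrane anchor, lay at 9.91 and 10.12 in WT non-irradiated, 10.03 and 9.90 in WT 2 Gy, 10.15 and 10.09 in CD169DTR/+ non-irradiated, and 10.49 and 10.27 in CD169DTR/+ 2 Gy. The irradiated CD169DTR/+ arrays were the highest of the 8, 0.415 ± 0.14 above irradiated WT (SE, n = 2 against 2; limma, adjusted p = 0.64). Sdha, the flavoprotein that oxidises succinate, lay at 11.86 and 11.47 in WT non-irradiated and at 11.20 and 11.20 in WT 2 Gy, 0.465 ± 0.24 lower. In CD169DTR/+ its arrays lay at 11.06 and 11.58 without irradiation and 11.52 and 11.06 after it, a spread between replicates about as wide as the difference in WT. Sdhb, the iron-sulphur subunit, and Sdhd, the other anchor, differed by 0.255 ± 0.15 and 0.13 between genotypes after 2 Gy, and Sdhd had replicates at 12.49 and 11.58 in CD169DTR/+ 2 Gy.

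Complex III passes electrons from ubiquinol to cytochrome c. Its 9 genes were all higher after irradiation in CD169DTR/+, from 0.01 to 0.29 with 3 without overlap, and all higher in CD169DTR/+ than in WT after 2 Gy, from 0.015 to 0.435 with 4 without overlap. In WT 6 of 9 were higher after irradiation. With centred arrays 6 of 9 were higher after irradiation in CD169DTR/+, 2 without overlap, and 3 of 9 in WT, while all 9 stayed higher between genotypes after 2 Gy. Uqcrc1, a large matrix-facing subunit, lay at 15.07 and 15.20 in WT non-irradiated, 14.89 and 14.84 in WT 2 Gy, 15.02 and 15.29 in CD169DTR/+ non-irradiated, and 15.34 and 15.26 in CD169DTR/+ 2 Gy. As with Ndufv1 and Ndufs8, both irradiated WT arrays were the lowest of the 8. The difference between genotypes after 2 Gy was 0.435 ± 0.13 (SE, n = 2 against 2; limma, adjusted p = 0.64), and the interaction was 0.415 ± 0.19.

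Cyc1, its haem-bearing subunit, lay at 13.15 and 13.39 in WT non-irradiated, 13.40 and 13.85 in WT 2 Gy, 13.21 and 13.85 in CD169DTR/+ non-irradiated, and 13.70 and 13.94 in CD169DTR/+ 2 Gy. Its replicates in CD169DTR/+ non-irradiated were farther apart than any 2 of its group means. Uqcrfs1, the Rieske iron-sulphur protein, differed by 0.11 between genotypes after 2 Gy, Uqcrc2, the partner of Uqcrc1, by 0.055, and Uqcrb, a small matrix-side subunit, by 0.015. Cycs, the mobile carrier that also triggers apoptosis when it leaves mitochondria, lay at 15.84 and 15.95, 15.95 and 16.28, 16.08 and 16.41, and 16.21 and 16.24 in the same order of groups. Its 2 CD169DTR/+ arrays without irradiation were above both WT ones, by 0.35 ± 0.17 (SE, n = 2 against 2). That probe set lies on another chromosome than the gene, and the probe set at the gene's own locus gave the same 0.35.

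Complex IV, cytochrome c oxidase, hands the electrons to oxygen, and several of its subunits exist as a general and a tissue-specific isoform. After irradiation in WT 19 of its 20 genes were higher, 10 without overlap, with a median of 0.165. With centred arrays 15 of 20 were higher, 2 without overlap, and 2 were lower without overlap, with a median of 0.045. Cox7a2l, which helps to join complexes III and IV into supercomplexes, was the 1 lower gene, at -0.11. In CD169DTR/+ 16 of 20 were higher after irradiation, 10 without overlap, or 6 with centred arrays. Between genotypes after 2 Gy complex IV had the smallest median of the 5 complexes, 0.05, with 16 higher, and held both members that were lower without overlap. That median pools roles: the general subunits ran from 0.0 to 0.345, and the tissue isoforms from -0.61 to 0.365.

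The general subunits had small differences. The 11 of them were all higher after irradiation in WT, from 0.05 to 0.33, and 10 of 11 in CD169DTR/+; with centred arrays it was 8 of 11 in WT and 10 of 11 in CD169DTR/+. Cox5b, a zinc-binding subunit, lay at 14.79 and 14.84 in WT non-irradiated, 15.09 and 15.20 in WT 2 Gy, 15.10 and 15.21 in CD169DTR/+ non-irradiated, and 15.25 and 15.54 in CD169DTR/+ 2 Gy. The WT non-irradiated arrays were the lowest 2 of the 8, 0.33 ± 0.14 below irradiated WT (n = 2 against 2) and 0.34 ± 0.14 below CD169DTR/+ non-irradiated. Cox4i1, the regulatory subunit in most tissues, lay between 13.67 and 13.90 on all arrays. Cox6a1, Cox6b1, Cox8a, Cox7a2 and Ndufa4 differed after irradiation, averaged over both genotypes, by 0.30, 0.245, 0.15, 0.07 and 0.155.

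The tissue isoforms varied more. Cox4i2, the isoform of Cox4i1 induced by low oxygen in lung and other tissues, lay at 5.41 and 5.58 in WT non-irradiated, 6.17 and 6.05 in WT 2 Gy, 5.72 and 5.54 in CD169DTR/+ non-irradiated, and 5.66 and 5.74 in CD169DTR/+ 2 Gy. Both irradiated WT arrays were above the other 6. The difference after irradiation in WT was 0.615 ± 0.13 (SE, n = 2 against 2), 1.53-fold with a 95% interval from 1.24 to 1.9. Its adjusted p of 0.41 was the lowest of any member in that comparison (limma; 0.29 to 0.95 over the alternatives). In CD169DTR/+ the difference was 0.07, and the interaction was -0.545 ± 0.18 (adjusted p = 0.91).

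Cox7a1, the isoform of heart and skeletal muscle, lay between 6.20 and 7.11 on 7 arrays and at 10.02 on CD169DTR/+ non-irradiated replicate 1. Its difference of 2.08 between genotypes without irradiation rests on that array: the other replicate was 7.00, beside 6.20 and 6.67 in WT. Cox7b2, a testis isoform named after its values were seen, was lower in CD169DTR/+ than in WT after 2 Gy (4.2 and 3.83 against 4.52 and 4.73), with both CD169DTR/+ arrays below the 40th percentile. Cox8b, the muscle isoform of Cox8a, was also dim: it was 3.31 and 2.99 in CD169DTR/+ non-irradiated and 4.01 and 3.52 in CD169DTR/+ 2 Gy. Cox6a2 lay between 4.22 and 4.41 and Ndufa4l2 between 2.86 and 3.16 on all arrays. Cox6b2, the testis isoform of Cox6b1, was not dim and was 0.29 higher after irradiation on average. Cox8c, another testis isoform, had replicates at 5.53 and 4.14 in WT 2 Gy.

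**Figure D3:**
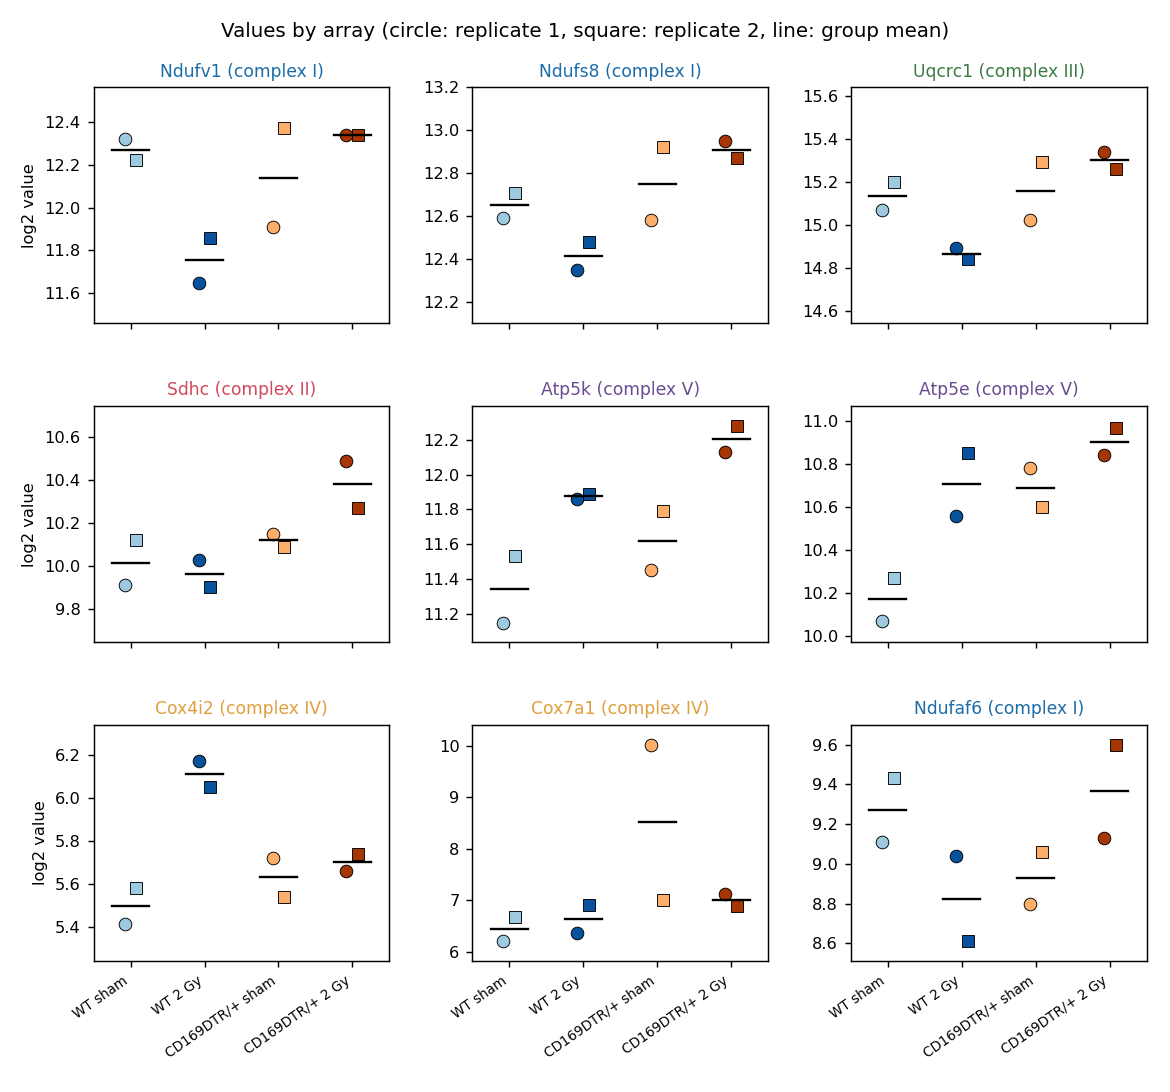
Log2 values (vertical axes, a separate scale per gene) of 9 genes on the 8 arrays in the 4 groups (horizontal axis); circles are replicate 1, squares replicate 2, and lines group means. Ndufv1, Ndufs8 and Uqcrc1 have their lowest 2 points in WT after 2 Gy, Cox4i2 has its highest 2 there, and Cox7a1 has 1 point at 10.02.

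Complex V, the ATP synthase, has a catalytic F1 head and a stalk and membrane part through which protons flow. Averaged over both genotypes, all 16 genes had a higher mean after irradiation, from 0.0075 to 0.56, with a median of 0.07. With centred arrays 8 of 16 were higher and the median was 0.0, so that this lean was lost under median centring. Atp5k, the small subunit e, which holds dimers of the enzyme together, had the lowest adjusted p of all members in that comparison. It lay at 11.15 and 11.53 in WT non-irradiated, 11.86 and 11.89 in WT 2 Gy, 11.45 and 11.79 in CD169DTR/+ non-irradiated, and 12.13 and 12.28 in CD169DTR/+ 2 Gy. Each irradiated array was above both controls of its genotype. The differences were 0.535 in WT and 0.585 in CD169DTR/+, and their average was 0.56 ± 0.13 (SE, 4 against 4 arrays), 1.47-fold with a 95% interval from 1.20 to 1.82 (limma, adjusted p = 0.36; 0.28 to 0.65 over the alternatives).

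Atp5e, the epsilon subunit of the central stalk foot, lay at 10.07 and 10.27 in WT non-irradiated, 10.56 and 10.85 in WT 2 Gy, 10.78 and 10.60 in CD169DTR/+ non-irradiated, and 10.84 and 10.97 in CD169DTR/+ 2 Gy. The WT non-irradiated arrays stood apart below the other 6. They were 0.535 ± 0.15 below irradiated WT and 0.52 ± 0.15 below CD169DTR/+ non-irradiated (SE, n = 2 against 2 each; limma, adjusted p = 0.53 and 0.999). Atp5d, the delta subunit, was 8.17 and 8.47 in WT 2 Gy and 8.67 and 8.99 in CD169DTR/+ 2 Gy, 0.51 ± 0.18 higher, and 8.39 and 8.53 in WT non-irradiated.

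The alpha and beta subunits that form the catalytic ring differed little: Atp5a1 lay between 13.35 and 13.60 and Atp5b between 13.79 and 13.95 on all arrays. The ring of c subunits is encoded by Atp5g1, Atp5g2 and Atp5g3, which make the same mature protein. Their differences after irradiation, averaged over both genotypes, were 0.15, 0.16 and 0.08, and between genotypes after 2 Gy 0.27, 0.265 and 0.145. For Atp5g2 and for Atp5l, subunit g, the brightest probe set lies on another chromosome than the gene. At the gene's own locus the difference between genotypes after 2 Gy was 0.365 for Atp5g2 and its average irradiation difference 0.0625, beside 0.265 and 0.16 on the brightest. The average irradiation difference of Atp5l was 0.41 there, beside 0.35 on the brightest.

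**Figure D4:**
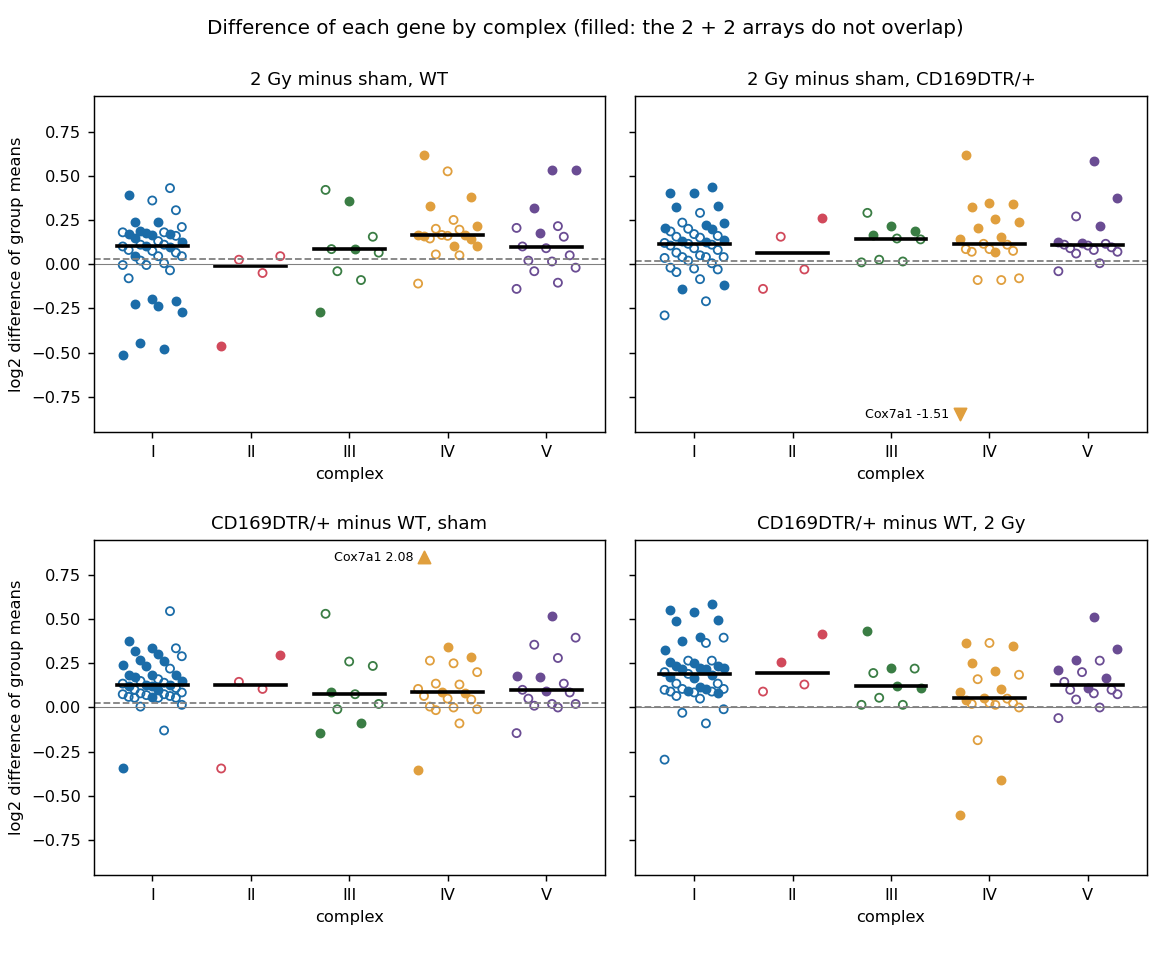
Log2 difference of group means (vertical axis) for each gene of complexes I to V (horizontal axis; Cycs is not drawn) in 4 comparisons; filled points are genes whose arrays do not overlap, black bars are medians, and the dashed line is the median of all genes above the 40th percentile. Between genotypes after 2 Gy the medians of complexes I to V are 0.19, 0.19, 0.12, 0.05 and 0.13; triangles mark Cox7a1, which lies beyond the axis.

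The medians of complexes I to V for irradiation in WT were 0.10, -0.01, 0.085, 0.165 and 0.095. Those for irradiation in CD169DTR/+ were 0.115, 0.06, 0.145, 0.11 and 0.11. Between genotypes they were 0.13, 0.125, 0.075, 0.085 and 0.10 without irradiation, and 0.19, 0.19, 0.12, 0.05 and 0.13 after 2 Gy. After 2 Gy the members higher without overlap in CD169DTR/+ were 23 of 43 in complex I, 2 of 4 in complex II, 4 of 9 in complex III, 8 of 20 in complex IV and 6 of 16 in complex V. No test between complexes was made, and the median over all members itself varied between replicates with an SD of 0.09. The medians of the complexes pool roles: complex I holds its 8 assembly factors, and complex IV its 8 tissue isoforms. For the interaction the medians were 0.025, 0.21, 0.065, -0.05 and 0.05, and complex II has only 4 genes.

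Genes around the chain were counted from lists of textbook members. None of their genes passed the adjusted p in the 6 comparisons. The 13 mitochondrially encoded subunits were not analysed here. Of 17 enzymes of the citric acid cycle and of pyruvate dehydrogenase, which supply NADH and succinate, 16 were measured, and 13 of them were higher in CD169DTR/+ than in WT after 2 Gy. All 13 were without overlap, with a median over the 16 of 0.35. After irradiation 4 of 16 were higher in WT, with a median of -0.04, and 13 of 16 in CD169DTR/+, with a median of 0.19. Their interaction was above 0 for 15 of 16 (median 0.21), and for 10 of 16 without CD169DTR/+ non-irradiated replicate 1. Ogdh, the rate-controlling 2-oxoglutarate dehydrogenase, lay at 12.64 and 12.71 in WT non-irradiated, 11.94 and 12.22 in WT 2 Gy, 12.49 and 12.73 in CD169DTR/+ non-irradiated, and 12.58 and 12.42 in CD169DTR/+ 2 Gy. Like Ndufv1 it was lowest on the irradiated WT arrays, and its average irradiation difference was -0.35 ± 0.11 (SE, 4 against 4 arrays; limma, adjusted p = 0.45). Dld, a subunit shared by both dehydrogenases, had an average of 0.27.

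Of 42 assembly factors outside the rule 35 were measured, and 27 were higher in CD169DTR/+ than in WT after 2 Gy, 13 without overlap, with a median of 0.19. After irradiation in WT 14 of 35 were higher, with a median of -0.035. Cox15, which makes the haem of complex IV, and Sdhaf4, which helps to assemble complex II, had average irradiation differences of -0.30 and 0.265. Of 7 carriers and channels 6 were measured, with a median of 0.24 between genotypes after 2 Gy and 4 higher; after irradiation in WT the median was -0.0575, with 1 higher. Vdac3, an outer membrane channel, differed by 0.29 between genotypes after 2 Gy, and Slc25a5, which exchanges ADP for ATP, by 0.22. Of 14 regulators of mitochondrial biogenesis 13 were measured, with a median of 0.205 between genotypes after 2 Gy and 9 higher. After irradiation 4 of 13 were higher in WT, with a median of -0.115, and 3 of 13 on average over both genotypes. Nrf1, a transcription factor of many respiratory genes, lay between 7.87 and 8.36 on all arrays. Gabpa, the DNA-binding part of another, lay at 7.64 on CD169DTR/+ non-irradiated replicate 1 and between 8.54 and 8.90 on the other 7.

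Markers of other cells and of division differed between the same groups. The median of 12 neutrophil and granulocyte progenitor genes deviated from the gene means by -0.75 and -0.435 in WT non-irradiated, 0.25 and 1.45 in WT 2 Gy, -0.22 and 0.19 in CD169DTR/+ non-irradiated, and 0.18 and 0.04 in CD169DTR/+ 2 Gy. Of these 11 of 12 were higher after irradiation in WT, and 2 of 12 were higher in CD169DTR/+ than in WT after 2 Gy. Their summed level (log2 of the sum of the linear values) ranged from 13.16 to 13.22, 14.60 to 15.93, 13.87 to 14.36 and 14.12 to 14.21 in the same order of groups, and none was below the 40th percentile on every array. Of 10 cell cycle genes 9 were measured, and 8 of them were higher in CD169DTR/+ than in WT after 2 Gy, with a median of 0.42. Their summed level ranged from 16.80 to 16.88, 16.80 to 17.12, 16.75 to 16.92 and 16.95 to 17.06. Of 8 measured stem cell genes 1 was higher in that comparison, with a median of -0.19 and summed levels from 14.93 to 15.12 in WT 2 Gy and from 14.83 to 14.87 in CD169DTR/+ 2 Gy. Of the measured megakaryocyte, erythroid, monocyte and macrophage, lymphoid, and endothelial and stromal genes, 2 of 9, 2 of 8, 1 of 10, 5 of 8 and 2 of 8 were higher in CD169DTR/+ than in WT after 2 Gy, and of mast cell, basophil and eosinophil genes 8 of 9. Of the 4 genes Cd48, Flt3 (which encodes Flk2), Cd34 and Il7r, the first pair of which encode proteins that the gate excludes, 3 were higher in that comparison, with a median of 0.21, 1 was higher after irradiation in WT, and 1 was below the 40th percentile on every array. The part of any of these in the levels of the oxidative phosphorylation genes was not tested.

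Many respiratory genes are known to be driven by the transcription factors NRF1 and NRF2 (GABP, of the ETS family), by YY1 and by the oestrogen-related receptors. RefSeq promoters (GRCm38.p6; 250 bases before to 50 after the gene's start) were matched for 74 of the 93 members, and letters for these motifs were searched on both strands. The NRF1 letters, GCGC and after any 1 base TGCGC, which read nearly alike on both strands, stood in 15 of 74 promoters (20.3%), beside 7.17% of 17491 protein-coding genes. The ETS letters CCGGAA stood in 28 (37.8%, beside 20.9%), the YY1 letters GCCATNTT in 18 (24.3%, beside 7.46%) and the ERR letters AAGGTCA in 7 (9.46%, beside 4.73%). Of the 18 promoters with the YY1 letters 13 were of complex I, which had 37 promoters matched. Over all 27025 genes the 4 shares were 5.19%, 16.7%, 6.96% and 5.38%.

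**Figure D5:**
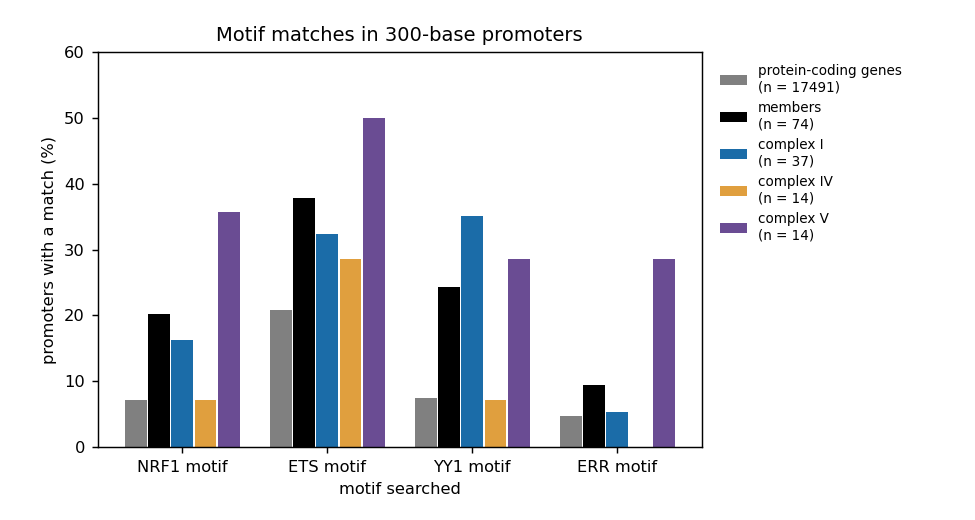
Share of promoters with a match (percent, vertical axis) for 4 motifs (horizontal axis) in protein-coding genes, all matched members and complexes I, IV and V. Members with NRF1 letters make up 20.3%, against 7.17% of protein-coding genes, and complex V reaches 35.7%, while complex IV stays at 7.14%; no complex IV promoter held the ERR letters.

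The promoters of 4 genes described above are printed from 250 bases before to 30 after the start, with the matched letters in capitals, because Ndufv1, Ndufs8 and Uqcrc1 had their lowest values on both irradiated WT arrays and Atp5k had the lowest adjusted p for irradiation averaged over both genotypes. The sequences are from RefSeq, GRCm38.p6, 5′ to 3′ in the direction of the gene: Ndufv1 at chr19:4012726-4013005, Ndufs8 at chr19:3912745-3913024 and Atp5k at chr5:108434370-108434649 are on the minus strand, and Uqcrc1 at chr9:108936398-108936677 is on the plus strand.
Ndufv1: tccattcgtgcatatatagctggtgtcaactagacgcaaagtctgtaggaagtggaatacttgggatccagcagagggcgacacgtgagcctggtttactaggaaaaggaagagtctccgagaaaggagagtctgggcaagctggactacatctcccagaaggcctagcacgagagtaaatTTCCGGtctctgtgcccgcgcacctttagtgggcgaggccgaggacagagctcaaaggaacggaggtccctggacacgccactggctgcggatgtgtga
Ndufs8: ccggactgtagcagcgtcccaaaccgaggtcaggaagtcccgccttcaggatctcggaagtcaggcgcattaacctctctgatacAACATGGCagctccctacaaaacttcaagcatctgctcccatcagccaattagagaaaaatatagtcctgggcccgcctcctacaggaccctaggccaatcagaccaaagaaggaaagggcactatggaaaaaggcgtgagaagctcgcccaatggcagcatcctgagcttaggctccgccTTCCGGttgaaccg
Uqcrc1: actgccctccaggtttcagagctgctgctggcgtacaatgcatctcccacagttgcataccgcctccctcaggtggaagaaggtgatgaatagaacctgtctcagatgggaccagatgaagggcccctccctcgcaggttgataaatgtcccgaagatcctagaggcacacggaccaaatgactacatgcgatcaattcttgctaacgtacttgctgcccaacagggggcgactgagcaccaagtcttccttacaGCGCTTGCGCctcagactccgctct
Atp5k: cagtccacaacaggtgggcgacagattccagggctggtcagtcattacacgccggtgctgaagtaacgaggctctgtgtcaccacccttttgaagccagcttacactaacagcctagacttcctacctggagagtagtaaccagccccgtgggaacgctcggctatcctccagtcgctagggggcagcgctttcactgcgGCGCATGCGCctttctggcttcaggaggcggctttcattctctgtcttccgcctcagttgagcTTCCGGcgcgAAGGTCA
Ndufv1 and Ndufs8 each hold the ETS letters, read on the opposite strand, and Ndufs8 also holds those of YY1. Uqcrc1 holds NRF1 letters just after the start, and a second match lies beyond the printed stretch. Atp5k holds NRF1, ETS and ERR letters. Ndufv1, Ndufs8 and Uqcrc1 thus have no single motif of the 4 in common. Other members, Ndufs1 and Ndufa9 among them, were also lowest on both irradiated WT arrays, and their promoters are not printed. Members with a motif did not stand far from those without: between genotypes after 2 Gy the median difference was 0.175 for the 15 with NRF1 letters and 0.135 for the 59 without, and 0.19 for the 28 with ETS letters and 0.14 for the 46 without. For YY1 it was 0.11 for the 18 with and 0.16 for the 56 without. A match describes letters in this window and is no evidence of binding.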

How the data were processed

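RNA of 8 sorted samples was hybridised to whole-transcript arrays after amplification with a pico kit, per the labels' protocols. The authors made the deposited log2 values with RMA, 1 per probe set, per the submitters' processing notes. The log base is not given in the sources used here and was read as log2 from the range. Genome build and background settings are likewise not given in the sources used here. Of 40161 probe sets, 30294 had 1 gene symbol, 2145 several and 7722 none; only the first were used, and symbols were updated through Entrez IDs where RefSeq had them. Probe sets shared with a second symbol left Ndufb4 and Ndufa11 out. The authors' values were not rescaled.

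Group means were fitted with limma 3.58.1 in R 4.3.3 over all single-symbol probe sets and 8 arrays (4 residual and 2.59 prior degrees of freedom), with Benjamini-Hochberg adjustment, after the script was tested on simulated data. Intervals are 95%. The number of arrays limits the precision. The members and lists were chosen with earlier results of these data known. Genes named in full were, per complex, the 2 lowest p-values for average irradiation and for the interaction, the isoform pairs, and catalytic subunits, plus 2 genes per pathway list; others are marked where named, or are given only within a group. Alternatives covered scaling, dim probe sets, variance settings, array weights, probe set choice, the replicate block and each array left out; using the probe set at the gene's own locus was added after the data were seen.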

Additional observations from a re-analysis of the deposited data

Results flagged for a closer look

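Ndufaf6, an assembly factor of complex I, was picked out because both irradiated WT arrays lay below their controls while both irradiated CD169DTR/+ arrays lay above theirs. The interaction was 0.88 on the log2 scale (1.84-fold, 95% interval 1.07 to 3.18), with an adjusted p of 0.93 (limma; 0.49 to 0.999 over the alternatives). Such opposite moves without overlap occurred in 1 of 93 members (1.08%) and in 1325 of all 29915 genes (4.43%).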

How the results depend on the processing

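Each summary result and each named gene's result was set beside its value under each alternative. Of these checks, 209 for summary results and 554 for single genes kept the direction and the side of the threshold. Many could not change direction, because variance settings, or leaving out an array of a group not compared, leave a difference as it was. The other 9 checks of summary results, 4 medians that moved and 5 counts above 0 where none was called, follow. Under an unadjusted p under 0.05 with a fold of at least 1.5, members passing numbered 1 for irradiation in WT, 2 in CD169DTR/+, 1 between genotypes without irradiation, 2 after 2 Gy and 2 for the interaction, beside 1002, 1085, 572, 1077 and 1215 of all probe sets. Centring arrays on their medians gave a member median of -0.015 for irradiation in WT and 0.12 for the interaction. Leaving out 1 array gave 0.005 to 0.18 for irradiation in WT and -0.07 to 0.09 for the interaction. The replicates came from 2 experiments, but the sources used here do not say that the replicate number marks the experiment. Correlations between same-numbered arrays' deviations ran from -0.09 to 0.16, so the numbers were not taken to pair the arrays. With the replicate block 0 members were called in each comparison, the lowest adjusted p being 0.34 for average irradiation, and the block changed no member call. Signal limits Cox8b, Cox7b2, Cox6a2 and Ndufa4l2, which lie at or below the 40th percentile, and 2 arrays a group limit every comparison.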
